A study of Mus musculus with 2 samples.

Results

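The proneural basic helix-loop-helix (bHLH) factors described here are Neurog1, Neurog2, Neurod1, Neurod4, Atoh1, Nhlh1, Nhlh2, Olig2 and Olig3, which are 9 of the 32285 genes in the feature list of both libraries. They were chosen by name, as known regulators of neurogenesis, and all 9 were found by their symbol and matched by gene identifier to the GENCODE annotation of GRCm38. They were measured by droplet-based single-cell RNA sequencing of dissociated whole embryos of the mouse, taken at embryonic day 9.5, in 1 library of wild-type and 1 library of Usb1-null embryos. The Usb1-null embryos carried a homozygous knockout of Usb1, a gene whose product is a nuclease acting on U6 small nuclear RNA. The deletion was made in the germline with CRISPR/Cas9, so it is not limited to 1 cell type, and the embryos came from crosses of heterozygous mice. The study describes Usb1-null embryos as smaller than wild-type ones at this age, so genotype and developmental stage cannot be told apart in these libraries. Neither the strain nor the number of embryos per library was stated in these sources.

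Proneural bHLH factors bind the E-box, a DNA motif of the form CANNTG, as dimers with the widely expressed E proteins. In the neural tube and in the sensory placodes they switch on Notch ligands of the Delta family, which hold neighbouring cells in a progenitor state, and they move the cell itself out of the cell cycle towards a neuron. Neurogenins act early in this sequence, NeuroD factors and the Nhlh factors act later, in cells already committed, and the Olig factors also mark bands of progenitors along the dorsoventral axis of the neural tube. Id proteins block bHLH dimers, and Hes proteins, induced by Notch, repress the proneural genes.

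The wild-type library held 15161 cells after filtering, with 21732106 unique molecular identifiers (UMIs, each standing for 1 captured transcript), and the Usb1-null library held 13018 cells with 33383886 UMIs. The median cell had 1243 UMIs in the wild-type and 2299.5 in the Usb1-null library, a 1.85-fold difference in depth. Levels are given as CPM, the UMIs of a gene scaled to a total of 1000000 summed UMIs, and as each transcript is read once near its 3′ end they are not scaled by gene length. With 1 library per genotype there is no replicate check and no test: the intervals given are 95% intervals for counting error, exact Poisson for levels, exact Clopper-Pearson for shares of cells, and the exact binomial split of the counts for ratios. Usb1 had 68 UMIs (3.13 CPM) in the wild-type and 47 UMIs (1.41 CPM) in the Usb1-null library, a ratio of 0.450 (0.303 to 0.662). Reads near the 3′ end may lie outside the deleted part, so this does not check the genotype. Xist had 53276 UMIs in the wild-type and 26 in the Usb1-null library, and 4 Y-linked genes together had 14 and 23463 UMIs, so the sex of the embryos differed between the libraries and cannot be told apart from the genotype. There were 61 cell barcodes found in both libraries.

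The 9 genes are short. They span from 1686 bases for Neurog1, which has 1 exon, to 12089 bases for Neurod4. Neurog1 lies on chromosome 13, Neurog2 and Nhlh2 on chromosome 3, Neurod1 on chromosome 2, Neurod4 and Olig3 on chromosome 10, Atoh1 on chromosome 6, Nhlh1 on chromosome 1 and Olig2 on chromosome 16. Neurod1 is the single member that overlaps other annotated genes: it lies within the span of Cerkl, on the same strand, and across a long non-coding RNA gene on the other strand. Cerkl itself had 52 UMIs in the wild-type and 39 in the Usb1-null library, so the split of reads between Neurod1 and Cerkl is uncertain.

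The stretches before the members' start sites are shown where they hold an E-box, the motif that the members' own proteins bind. In windows of 250 bases before the RefSeq start of GRCm38.p6, searched on both strands (CANNTG reads the same on each), an E-box was found for 4 of the 9 members: Nhlh1, Nhlh2, Neurod1 and Olig3. No match was found in the windows of the other 5. Of 32851 promoter windows of all genes, 66.2% held at least 1 CANNTG. The form CAGATG, or its reverse complement CATCTG, was in 14.4% of all windows, and occurred here before Nhlh1 and Nhlh2. CATATG, before Neurod1, was in 3.46% of all windows. In the following stretches, which stop at the gene start of whichever of the 2 annotations lies farther upstream, the capitals mark CANNTG:
Nhlh1, chr1:172057597-172057846, minus strand: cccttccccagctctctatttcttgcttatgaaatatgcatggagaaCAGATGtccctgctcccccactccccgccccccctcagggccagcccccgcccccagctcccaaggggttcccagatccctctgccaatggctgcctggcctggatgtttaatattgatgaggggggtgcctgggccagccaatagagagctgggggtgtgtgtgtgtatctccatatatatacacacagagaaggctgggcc
Nhlh2, chr3:102009895-102010075, plus strand: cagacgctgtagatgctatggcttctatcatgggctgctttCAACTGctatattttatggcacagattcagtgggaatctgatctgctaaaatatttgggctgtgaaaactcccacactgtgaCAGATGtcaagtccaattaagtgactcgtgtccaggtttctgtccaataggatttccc
Neurod1, chr2:79456752-79456886, minus strand: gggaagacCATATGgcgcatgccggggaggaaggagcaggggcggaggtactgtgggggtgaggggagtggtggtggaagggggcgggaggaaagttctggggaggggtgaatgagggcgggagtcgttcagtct
Olig3, chr10:19356289-19356532, plus strand: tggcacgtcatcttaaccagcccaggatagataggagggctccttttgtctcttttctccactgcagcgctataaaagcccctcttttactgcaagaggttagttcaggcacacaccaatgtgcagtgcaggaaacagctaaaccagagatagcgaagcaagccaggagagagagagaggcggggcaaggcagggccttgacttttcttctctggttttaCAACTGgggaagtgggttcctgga
Counted to the RefSeq start, the E-box began 203 bases before that of Nhlh1, 209 and 127 bases before that of Nhlh2, 242 bases before that of Neurod1 and 30 bases before that of Olig3. The printed stretches of Nhlh2, Neurod1 and Olig3, of 181, 135 and 244 bases, end before the RefSeq start. A match of these letters is a description of the window and not evidence of binding.

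The first question was in which cells the members were found. Together they had 571 UMIs in the wild-type and 772 in the Usb1-null library. Clustering, made without the members among the genes used, gave 32 clusters, of which 7 were neural by their markers. One of these raised the neuron markers (Tubb3, Elavl3, Myt1 and St18 among its leading genes) and is called the neuron cluster, and the other 6 included clusters like neural progenitors, forebrain, midbrain, spinal cord and floor plate. The neuron cluster held 316 wild-type and 175 Usb1-null cells and only 1.74% of all cells, but 23.2% of the members' UMIs. The other 6 neural clusters held 52.7% of the members' UMIs with 30.5% of all cells, and the non-neural clusters held 24.1% with 67.8%.

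Among the factors of commitment, Neurod1, a bHLH factor of differentiating neurons and sensory ganglia, had 75.3% of its UMIs in the neuron cluster, above the 63.8% of Neurod4, 59.6% of Nhlh1 and 45.5% of Nhlh2. The intervals of the ratio of the neuron cluster to the other 6 neural clusters overlapped among these 4 genes in each library, so no order is read from that ratio. Its level there was 94.6 CPM in the wild-type (67.6 to 129) and 62.1 CPM in the Usb1-null library (40.9 to 90.3). In the other 6 neural clusters it was 0.962 and 0.396 CPM. Neurod4, which acts with neurogenins in brain, spinal cord and cranial ganglia, was at 75.7 CPM (51.8 to 107) in the neuron cluster of the wild-type library and at 96.5 CPM (69.6 to 130) in that of the Usb1-null library, against 1.44 and 1.09 CPM in the other 6 neural clusters. Both NeuroD genes were therefore higher in the neuron cluster in each library, with intervals that did not overlap.

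Nhlh1 and Nhlh2, bHLH factors of newly born neurons, followed the same order at few counts. The level of Nhlh1 in the neuron cluster was 40.2 CPM in the wild-type and 32.2 CPM in the Usb1-null library, on 17 and 14 UMIs, with 3 UMIs per library in all the other 6 neural clusters. Nhlh2 was at 18.9 and 16.1 CPM in the neuron cluster, on 8 and 7 UMIs, and had 2 and 1 UMIs in the other 6 neural clusters. Its remaining UMIs were spread: 45.5% of them fell in non-neural clusters, so its distribution outside the neuron cluster was not distinguishable from background at this depth.

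The neurogenins differed from each other in how far they extended beyond the neuron cluster. Neurog1, which specifies sensory precursors in placodes and neural crest as well as neural tube interneurons, had a neuron-cluster level of 52.0 CPM in the wild-type library and 50.6 CPM in the Usb1-null library, and was at 2.40 and 1.68 CPM in the other 6 neural clusters. The ratio of the neuron cluster to the other 6 was 21.6 (10.7 to 44.8) in the wild-type and 30.02 (15.2 to 60.2) in the Usb1-null library. Neurog2, which drives neurogenesis in the cortex, spinal cord and placodes, was at 52.0 and 59.8 CPM in the neuron cluster and at 15.1 and 10.2 CPM in the other 6. Its ratio was 3.45 (2.07 to 5.54) in the wild-type and 5.86 (3.65 to 9.08) in the Usb1-null library. The intervals of the ratio for Neurog1 and for Neurog2 did not overlap in either library, so more of the Neurog2 signal lay in cells outside the neuron cluster: 58.6% of its UMIs were in the other 6 neural clusters, against 29.6% for Neurog1.

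The Olig factors lay mostly in progenitor clusters. Olig2, which marks the motor neuron progenitor domain, was found in the other 6 neural clusters at 13.1 CPM (10.5 to 16.3) in the wild-type and at 14.2 CPM (11.9 to 16.7) in the Usb1-null library, and was at 26.0 and 29.9 CPM in the neuron cluster on 11 and 13 UMIs. Olig3, which marks dorsal progenitors, was at 12.7 CPM (10.0 to 15.8) and 13.3 CPM (11.1 to 15.7) in the other 6 neural clusters, and its 3 and 6 UMIs in the neuron cluster gave levels within counting error of these. Of the UMIs of Olig2 and Olig3, 72.6% and 72.0% were in the other 6 neural clusters. Atoh1, which defines the rhombic lip and the most dorsal interneurons, had 1 UMI in the wild-type and 2 UMIs in the Usb1-null library, which is under the floor of 3 counts, and no fold is given for it.

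**Figure D1:**
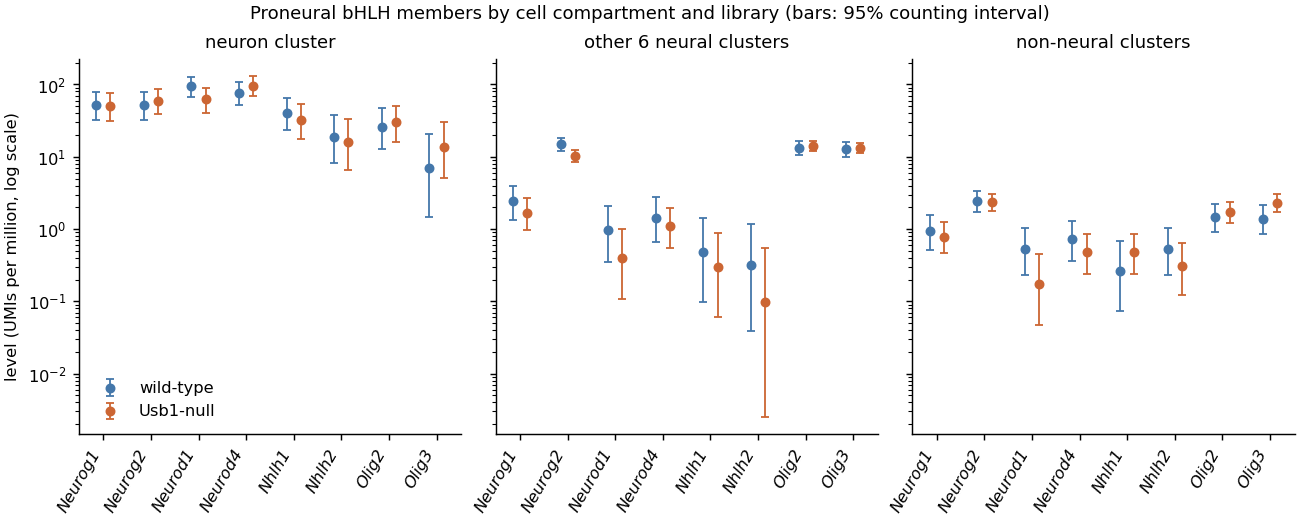
Level of 8 members (horizontal axis) in CPM on a log scale (vertical axis), in the neuron cluster, the other 6 neural clusters and the non-neural clusters of the wild-type (blue) and Usb1-null (orange) library. Points are single library sums and bars are 95% counting intervals, and Atoh1, with 3 UMIs in all, is left out. Neurod1 lay at 94.6 and 62.1 CPM in the neuron cluster and below 1 CPM elsewhere, whereas Olig2 and Olig3 stood above 10 CPM in the other neural clusters.

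Free RNA gives background UMIs in every droplet. In erythroid-like cells, which should lack these factors, 4 of 600 wild-type cells (0.667%, 0.182 to 1.70) and 3 of 190 Usb1-null cells (1.58%, 0.327 to 4.54) had a UMI of any member, at median depths of 839.5 and 1725.5 UMIs. The share in the neuron cluster was 33.9% (28.7 to 39.4) in the wild-type library and 46.3% (38.7 to 54.0) in the Usb1-null library, at median depths of 1176 and 2311 UMIs. In the other 6 neural clusters it was 5.55% and 8.64%, above the erythroid-like share in both libraries. In all non-neural clusters together it was 1.08% and 2.06%, within the interval of the erythroid-like cells. The non-neural clusters were not alike, however: 1 of them, which has no cell type name, held the members at 37.8 CPM in each library, against 8.29 and 8.66 CPM over all non-neural clusters, so their signal is not read as background throughout.

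The 7 neural clusters were clustered again into 23 sub-clusters, to find where within the neural lineage each member was highest. Of 4 sub-clusters with cells mostly from the neuron cluster, 1 was led by Ebf2, Onecut1, Gadd45g and Dll1, genes of commitment and of Notch signalling (144 wild-type and 70 Usb1-null cells). Neurog2 was highest there, at 130 CPM in the wild-type and 111 CPM in the Usb1-null library. The interval over both libraries, 87.4 to 163 CPM, overlapped that of the sub-cluster next in order (40.1 to 114 CPM). Nhlh1 was at 48.8 and 52.5 CPM, and 7 of the 9 members had at least 12 UMIs in this sub-cluster over both libraries, with 7 of Nhlh2 and 0 of Atoh1.

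Neurod1 had its highest level in another sub-cluster, led by Eya2 and Isl1, genes of sensory placodes and ganglia, with 76 wild-type and 40 Usb1-null cells. The level was 190 CPM in the wild-type and 143 CPM in the Usb1-null library, and 21.1% and 30% of its cells had a Neurod1 UMI. Over both libraries Neurod1 was at 167 CPM (118 to 229) there and at 59.0 CPM (36.5 to 90.2) in the Ebf2 and Dll1 sub-cluster, with intervals that did not overlap. Neurog1 was also present, at 77.6 and 80.4 CPM. Neurod4 was low in it, with 5 and 1 UMIs.

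The other pair of neuronal sub-clusters held little Neurog2. In the one led by St18, Ebf1 and Tbx20 (92 and 49 cells), Tbx20 being a gene of motor neurons, Neurod4 was at 75.2 CPM in the wild-type and 148 CPM in the Usb1-null library, and Neurog2 had 1 UMI in all. In the one led by Tfap2b, Ebf3 and Tubb3 (44 and 19 cells), Neurog1 was at 80.5 and 92.1 CPM on 5 and 4 UMIs, and Neurog2 had 0 UMIs. Over both libraries the interval for Neurog1 in that sub-cluster, 39.0 to 162 CPM, overlapped its intervals in the other 3 neuronal sub-clusters, so its order among them cannot be read.

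Among progenitors, Olig2 and Olig3 took different sub-clusters. Olig2 was highest in a ventral sub-cluster led by Nkx6-1, Nkx2-9 and Ptch1, at 95.4 CPM in the wild-type and 86.1 CPM in the Usb1-null library, which held 41.6% of its UMIs. It was next in the Ebf2 and Dll1 sub-cluster, at 65.0 and 81.6 CPM, whose interval over both libraries (47.7 to 107 CPM) overlapped that of the ventral sub-cluster (74.9 to 107 CPM). A further site was a sub-cluster led by Wnt8b and Rspo2, at 14.5 and 26.4 CPM, with 10% of the Olig2 UMIs. This sub-cluster raised 4 markers of the roof plate and dorsal neural tube (Lmx1a, Wnt3a, Rspo1 and Zic1) and 3 of the forebrain (Six3, Emx2 and Otx2), with Emx2 among its leading genes. Olig3 had 0 UMIs in the ventral sub-cluster, where Olig2 had 129, and 0 UMIs in the Wnt8b and Rspo2 sub-cluster, where Olig2 had 31.

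Olig3 was highest in a sub-cluster led by Casz1 and Epha7, at 70.8 CPM in the wild-type and 65.1 CPM in the Usb1-null library. It was at 45.8 and 64.2 CPM in an unnamed sub-cluster with Wnt3a, Msx1, Pax3 and Wnt1, genes of the dorsal neural tube, among its leading genes, and at 50.2 and 44.4 CPM in one led by Draxin and Msx3. The intervals of these 3 levels over both libraries overlapped, so their order is not established. Outside the neuronal sub-clusters, Neurog2 was found both in the ventral sub-cluster (42.2 and 22.4 CPM) and in a spinal cord-like sub-cluster led by Hox genes (31.0 and 26.2 CPM).

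**Figure D2:**
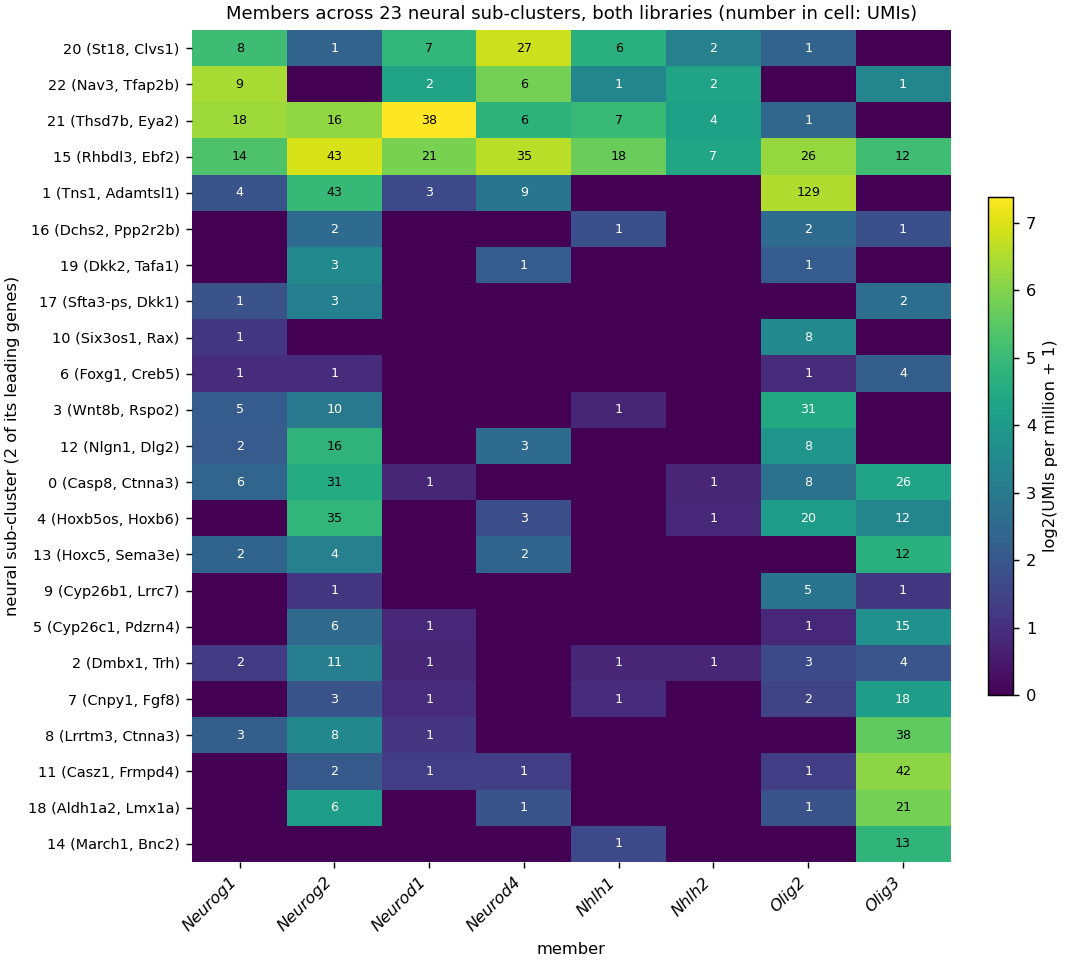
Level of 8 members (columns) in the 23 neural sub-clusters (rows, with 2 of the leading genes of each), both libraries summed, as log2(CPM + 1) in colour, with the number of UMIs in each cell of the map and blank cells at 0 UMIs. The 4 neuronal sub-clusters are at the top, and the 129 Olig2 UMIs of the ventral sub-cluster face 0 UMIs of Olig3.

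What else the cells with a member held was compared in the neural clusters, between cells with at least 1 UMI of that member and cells with none, over both libraries. The Notch ligand and commitment list (Dll1, Dll3, Hes6, Insm1, Gadd45g, Ebf genes and others) was 10.5-fold higher in Neurod1-positive cells, 9.76-fold in Neurod4-positive, 10.4-fold in Nhlh1-positive and 10.8-fold in Nhlh2-positive cells. It was 6.27-fold higher with Neurog1 and 2.43-fold higher with Neurog2, and 1.24-fold and 0.993-fold with Olig2 and Olig3. For both NeuroD genes the ratio differed between the libraries by more than counting error: with Neurod1 it was 7.51 (6.62 to 8.48) in the wild-type and 13.6 (12.3 to 15.1) in the Usb1-null library, and with Neurod4 7.42 (6.47 to 8.48) and 11.9 (10.9 to 13.1). In the wild-type library both intervals overlapped that of Neurog1 (6.08, 5.25 to 6.99). The level in the negative cells differed as well. For Neurod4 the list was at 4192 and 4436 CPM in positive cells, and at 565 and 371 CPM in negative cells. For Neurod1 it was at 4194 and 5183 CPM in positive cells, and at 559 and 380 CPM in negative cells. The ratios are therefore not read as a difference in the positive cells alone. The neuron marker list was 5.99-fold higher with Neurod1, 7.21-fold with Neurod4, 5.80-fold with Nhlh1, 6.18-fold with Nhlh2 and 3.30-fold with Neurog1. It was 1.62-fold (1.45 to 1.81) higher with Neurog2 and 1.55-fold (1.38 to 1.73) with Olig2, with intervals that overlapped, and 0.855-fold with Olig3. Over both libraries the median depth of cells with a member UMI ran from 1718 UMIs with Neurod1 to 2182.5 with Nhlh1, against 1621 to 1625.5 in the cells without. Within a library the difference did not always have this direction: in the wild-type library the median was 1208 UMIs with Neurog2 and 1221 without, and in the Usb1-null library 2196.5 with Olig3 and 2294 without. The part of depth in these ratios was not tested beyond the scaling to CPM.

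For Neurog2 the neuron list ratio differed between the 2 libraries by more than counting error, which does not cover variation between cells or embryos. Neural cells without a Neurog2 UMI were at 549 CPM in the wild-type and 410 CPM in the Usb1-null library, and Neurog2-positive cells at 564 and 846 CPM. Their neuron marker level was 1.03-fold that of the other neural cells (0.816 to 1.27) in the wild-type, below the 1.73-fold (1.41 to 2.11) of Olig2-positive cells there, and 2.06-fold (1.81 to 2.34) in the Usb1-null library, while the commitment list was raised in both, 2.02-fold (1.73 to 2.35) and 2.84-fold (2.54 to 3.17), again without overlap. The progenitor list (Sox2, Pax6, Hes5 and others) was 1.21-fold higher in Neurog2-positive cells and 0.590-fold in Neurod1-positive cells. Within the commitment list, the Notch ligand gene Dll1 was at 175 CPM in Neurog2-positive and 45.2 CPM in Neurog2-negative neural cells, a ratio of 3.87 (3.03 to 4.87). Dll3, which encodes another Delta-family protein, was at 202 CPM with Neurod4 and 9.11 CPM without it, a ratio of 22.1 (14.8 to 32.2). Gadd45g, a cell cycle arrest gene, was 4.96-fold higher (3.80 to 6.41) with Neurog2.

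Among genes of sensory placodes and ganglia, Isl1 was higher with every commitment member, from 10.2-fold with Neurog1 to 21.1-fold with Nhlh2, apart from Neurog2 (3.64-fold), and its 15.5-fold (10.1 to 23.1) with Neurod1 lay among them. Eya2 was 15.3-fold (12.04 to 19.1) higher with Neurod1 and 7.42-fold (5.49 to 9.84) with Neurod4, with intervals that did not overlap, whereas those with Neurog1, Nhlh1 and Nhlh2, at 9.42-fold, 12.1-fold and 10.8-fold, overlapped that of Neurod1. Pou4f1, a sensory neuron factor gene, had a ratio of 2.93 (0.597 to 8.78) with Neurod1, on 3 UMIs. The ventral list was 2.11-fold higher with Olig2 and 0.423-fold with Olig3, and the dorsal list was 0.256-fold with Olig2 and 2.60-fold with Olig3, so the pair had opposite profiles. Among single genes, Nkx6-1, a ventral progenitor factor, was at 95.1 CPM with Olig2 and 32.1 CPM without it, and the roof plate signal gene Wnt3a was at 151 CPM with Olig3 and 34.6 CPM without it.

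**Figure D3:**
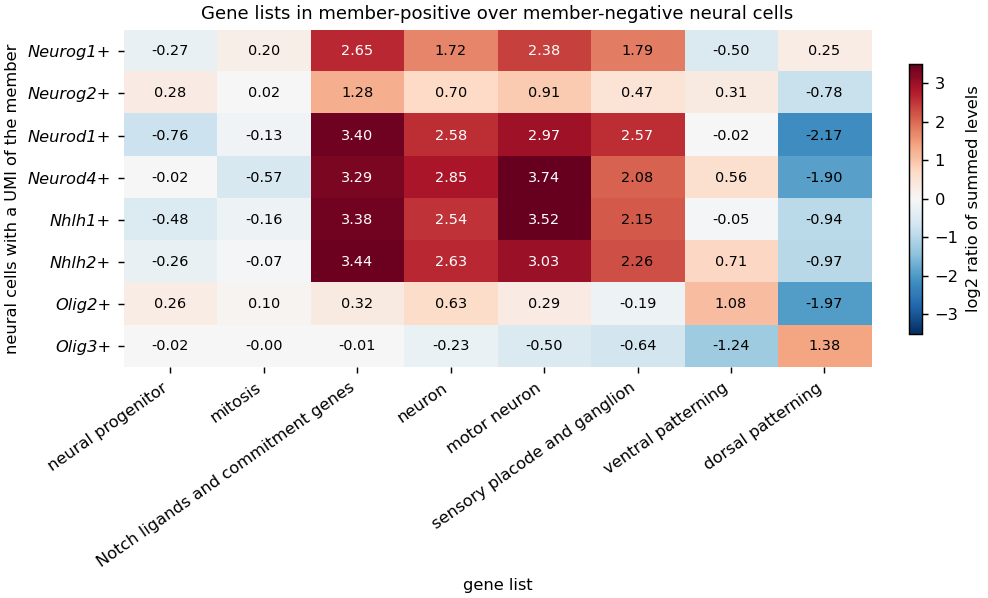
Log2 ratio of the summed level of each gene list (columns) in neural cells with a UMI of the member (rows) over neural cells with none, both libraries, in colour and as printed values. The Notch ligand and commitment list lay between 3.29 and 3.44 for both NeuroD and both Nhlh members, at 1.28 for Neurog2, and at 0.32 and -0.01 for Olig2 and Olig3, whose ventral and dorsal columns have opposite signs.

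Most cells with a member showed 1 member only: 981 cells had 1 and 101 had 2 or more, of which 62 were in the neuron cluster and 6 were called as doublets. The most frequent pair was Neurog2 with Olig2, in 22 cells, which were 7.24% of Neurog2-positive and 8.21% of Olig2-positive cells, and 12 of them lay in the other 6 neural clusters. Neurog2 with Neurod4 was found in 15 cells, and Neurod1 with Neurod4 in 14 cells, 13 of them in the neuron cluster. The neurogenins themselves were found together in 5 cells, 4.81% of the 104 with Neurog1 and 1.64% of the 304 with Neurog2. Olig2 and Olig3 were in the same cell once, among 268 and 267 positive cells. As single UMIs are often missed at this depth, absence of a second member in a cell says nothing about its expression.

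Across 40 groups of cells (the neural sub-clusters and the non-neural clusters with enough cells) in each library, giving 80 points, the genes whose levels were most alike to a member among 15026 genes were found by Pearson's r of log2(CPM + 1). The points share library and depth, and low counts limit r, so the values are a description. Neurod1 and Nhlh2 were both nearest to Cbfa2t2, a transcriptional corepressor gene (r = 0.71 and 0.72), and Nhlh1 was nearest to St18 (r = 0.63), a zinc finger factor gene. Neurod4 was nearest to Nin (r = 0.67), which encodes the centrosomal protein ninein, Neurog1 to Kif19a (r = 0.55) and Neurog2 to Aim2 (r = 0.67), followed by the POU factor gene Pou3f2 (r = 0.65). Olig3 was nearest to the dorsal genes Msx3 and Wnt3a (r = 0.72 and 0.67), and Olig2 to Btbd17 (r = 0.62), with Pax6, a progenitor factor gene, also near (r = 0.54).

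The comparison the study was made for is that of the genotypes. In the whole library, the summed level of the 9 members was 26.3 CPM in the wild-type (24.2 to 28.5) and 23.1 CPM in the Usb1-null library (21.5 to 24.8), a ratio of 0.880 (0.789 to 0.982). The direction of this sum depended on which cells were kept: with a minimum of 1000 detected genes per cell the ratio was 1.10. Neurod1 was at 2.48 CPM in the wild-type and 1.05 CPM in the Usb1-null library, a ratio of 0.422 (0.268 to 0.658), and Neurog2 was at 7.04 and 5.48 CPM, a ratio of 0.779 (0.625 to 0.972). For both of these genes the interval was below 1. That of Neurod1 stayed below 1 in the 6 alternatives with an interval, whereas that of Neurog2 included 1 in 3 of them, at 0.825 (0.654 to 1.04) without called doublets, 0.946 (0.723 to 1.25) with the minimum of 1000 genes and 0.798 (0.556 to 1.14) with each cell thinned to 750 UMIs. The interval of the sum also reached past 1 without called doublets, at 0.896 (0.800 to 1.004).

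The other members had intervals that included 1. Neurog1 was at 2.35 and 1.71 CPM, with a ratio of 0.728 (0.490 to 1.08), and Neurod4 was at 2.39 and 1.92 CPM, with a ratio of 0.801 (0.547 to 1.18). Nhlh1 was at 1.10 and 0.839 CPM and Nhlh2 at 0.828 and 0.449 CPM, with ratios of 0.759 (0.424 to 1.37) and 0.542 (0.254 to 1.14). Olig2 was at 5.29 and 5.84 CPM, and Olig3 at 4.74 and 5.78 CPM, with ratios of 1.10 (0.872 to 1.40) and 1.22 (0.955 to 1.56). These depended on the cells kept: with the minimum of 1000 genes Olig2 was at 1.502 (1.11 to 2.06) and Olig3 at 1.55 (1.14 to 2.13), intervals that exclude 1, and Neurod4 at 1.02. Thinned to 750 UMIs, Olig3 was at 0.965, Nhlh1 at 0.370 (0.086 to 1.25), Neurod4 at 0.575 (0.268 to 1.18) and Nhlh2 at 0.113 (0.0026 to 0.816). The sides of 1 are therefore not read as a split between the commitment genes and the Olig genes.

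Of the 7 members with at least 50 UMIs over both libraries, 1, Neurod1, was lower in the Usb1-null library by a fold of at least 1.5, and 0 were higher. Over all 16752 genes with that many UMIs, 5.9% were lower and 9.2% higher by that fold. Among the 5089 of these genes whose span is no longer than that of the longest member, 12.8% were lower and 11.2% were higher, and the median ratio was 0.925, against 1.02 for longer genes. The members are all in the group of short genes, and the part of gene length in their ratios was not tested.

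The share of cells with a UMI of any member was 3.1% (2.83 to 3.39) in the wild-type and 4.70% (4.34 to 5.08) in the Usb1-null library. When each cell was thinned to 750 UMIs, leaving out 2188 wild-type and 269 Usb1-null cells with fewer, the shares were 1.91% (1.68 to 2.16) and 1.55% (1.35 to 1.78). The ratio of the shares was 1.52 (1.34 to 1.71) as counted and 0.812 (0.671 to 0.983) thinned, so the order of the libraries turned with the thinning. The interval of the thinned ratio excludes 1, although the intervals of the 2 thinned shares overlapped. It covers counting error only, and no order is read beyond that. For Neurod1 the thinned shares were 0.177% and 0.0628%, a ratio of 0.354 (0.137 to 0.820) on 23 and 8 cells. For Olig2 they were 0.393% and 0.463%, a ratio of 1.18 (0.795 to 1.75). Nhlh2 had a thinned ratio of 0.113 (0.0026 to 0.816) on 9 and 1 cells.

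The neuron cluster was a smaller part of the Usb1-null library. It held 2.08% of wild-type cells (1.86 to 2.32) and 1.34% of Usb1-null cells (1.15 to 1.56), a ratio of 0.645 (0.533 to 0.778), while the 7 neural clusters together held 32.02% and 32.5%. Each of the 4 neuronal sub-clusters had a smaller share in the Usb1-null library, with ratios of 0.566 for the Ebf2 and Dll1 sub-cluster, 0.620 for that led by St18, 0.613 for that led by Eya2 and Isl1, and 0.503 for that led by Tfap2b. Fewer neurons and less RNA of a gene per neuron cannot be told apart in whole-library levels. With the Usb1-null clusters weighted to the wild-type shares, the ratio of the summed members was 0.963, that of Neurod1 0.621 and that of Neurod4 1.09.

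Within the neuron cluster the summed members were at 367 CPM in the wild-type and 361 CPM in the Usb1-null library, a ratio of 0.984 (0.783 to 1.24). Neurod1 had a ratio of 0.656 (0.387 to 1.10), Neurod4 of 1.28 (0.786 to 2.09), Neurog2 of 1.15 (0.626 to 2.13), Neurog1 of 0.972 (0.513 to 1.84), Nhlh1 of 0.800 (0.365 to 1.73) and Olig2 of 1.15 (0.475 to 2.83). All of these intervals include 1, and they leave room for differences of more than 1.5-fold in either direction for Neurog1, Neurog2, Nhlh1 and Olig2. Of these 6 members, 1 was past a fold of 1.5 downwards (Neurod1) and 0 upwards, against 14.4% and 11.3% of the 7715 genes that reached 20 UMIs there. Cerkl, in whose span Neurod1 lies, had 20 and 6 UMIs in the neuron cluster.

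In the other 6 neural clusters the members together were at 46.7 CPM in the wild-type and 41.3 CPM in the Usb1-null library, a ratio of 0.885 (0.760 to 1.03). Neurog2, with 94 and 103 UMIs, was the member whose interval excluded 1, at 15.1 and 10.2 CPM, a ratio of 0.677 (0.507 to 0.905). Olig2 and Olig3 had ratios of 1.08 (0.816 to 1.43) and 1.05 (0.788 to 1.40), whose intervals lie within a fold of 1.5. Neurog1 and Neurod4 had ratios of 0.700 (0.329 to 1.51) and 0.755 (0.284 to 2.06). None of the 5 members with at least 20 UMIs was past a fold of 1.5, against 10.8% of 15542 genes higher and 7.85% lower. This depended on the clustering: Neurod4 was at 0.499 with no library correction and 0.463 with 4000 variable genes. At a higher resolution Neurog2 was at 0.647 and Neurog1 at 0.661.

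**Figure D4:**
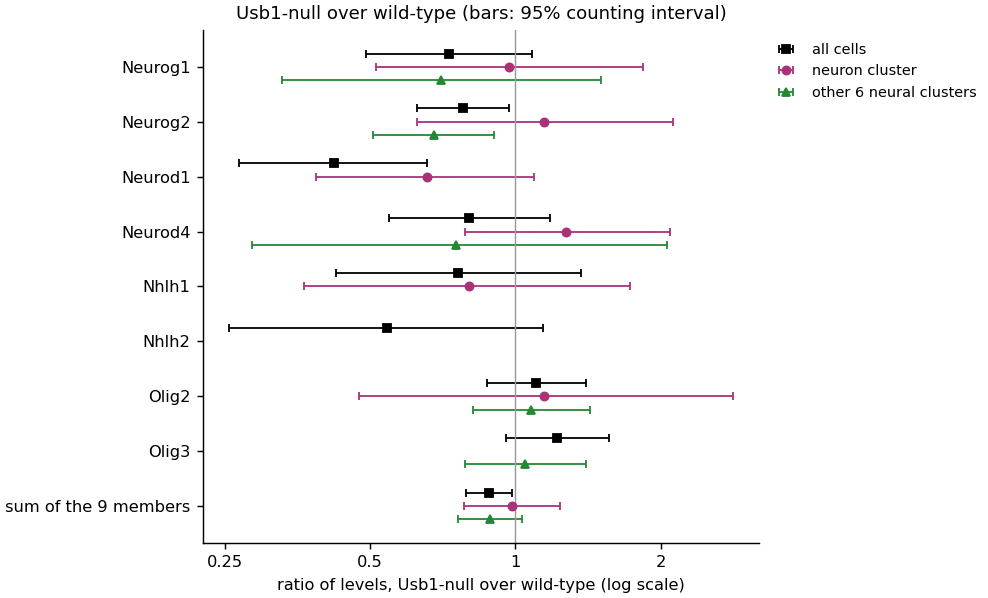
Ratio of the Usb1-null to the wild-type level (horizontal log axis) for each member with at least 20 UMIs and for the sum of all 9, in all cells (black squares), the neuron cluster (purple circles) and the other 6 neural clusters (green triangles), with 95% counting intervals. Neurod1 in all cells, at 0.422, and Neurog2 in all cells and in the other neural clusters, at 0.779 and 0.677, have intervals that stay below 1.

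The genes that work with the members were read in the same way. All 3 genes of the E protein partners (Tcf3, Tcf4 and Tcf12) were within a fold of 1.5 in the whole library, in the neuron cluster and in the other 6 neural clusters. All 8 Id and Hes inhibitor genes were within it in the whole library, where Hes1, a Notch target, was at 56.5 CPM in the wild-type and 79.6 CPM in the Usb1-null library and Hes5, the Notch target of neural progenitors, at 57.2 and 45.7 CPM. In the other 6 neural clusters Id4 was lower, at 11.7 and 6.14 CPM, a ratio of 0.525 (0.368 to 0.746), and Hey1, a Hes-related repressor gene, was past the fold upwards, at 3.37 and 5.25 CPM, with an interval that includes 1 (1.56, 0.925 to 2.72). In the neuron cluster 5 of the 8 were measured, with a median ratio of 1.37, and Hes1 was past the fold, at 21.3 and 32.2 CPM on 9 and 14 UMIs (1.51, 0.610 to 3.96).

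Of the 15 genes of the Notch ligand and commitment list, Gadd45g was lower in the Usb1-null whole library, at 33.9 and 19.9 CPM (ratio 0.587, 0.528 to 0.653), and Mybl1, a Myb-family factor gene, was higher, at 22.4 and 34.5 CPM (1.54, 1.38 to 1.72). Within the neuron cluster 13 were measured. Dll1 was higher there, at 251 and 395 CPM (1.58, 1.23 to 2.03), and Ebf1, a factor of differentiating neurons, was lower, at 2253 and 1344 CPM (0.597, 0.537 to 0.662). Over all genes, 9.2% were higher and 5.9% lower in the whole library, and 11.3% and 14.4% in the neuron cluster. In the other 6 neural clusters 2 of 13 list genes were higher and 2 lower, against 10.8% and 7.85% of all genes.

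The neuron list had the most genes past the fold in the neuron cluster. Of 13 measured, 7 were lower in the Usb1-null library by a fold of at least 1.5 and 1, Mapt (28.4 and 52.9 CPM, 1.86, 0.890 to 4.11), was higher, with a median ratio of 0.654, against a median of 0.972 over all genes. Tubb3, which encodes a neuronal tubulin, was at 494 CPM in the wild-type and 179 CPM in the Usb1-null library (0.363, 0.276 to 0.473), Dcx, a microtubule-binding protein of migrating neurons, at 130 and 57.5 CPM (0.442, 0.264 to 0.721), and Stmn2, a neuronal stathmin, at 267 and 122 CPM (0.456, 0.323 to 0.637). The neuron list also served to name the cluster, and it is given here as a property of the cells in which the members were compared. Together its genes were at 3762 CPM in the cluster in the wild-type library and at 2595 CPM in the Usb1-null library, whereas the summed members in these cells were at 367 and 361 CPM.

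Along the dorsoventral axis, 2 of 10 ventral genes were higher in the Usb1-null whole library, against 9.2% of all 16752 genes. They were Nkx2-9 at 2.44 and 4.22 CPM (1.73, 1.25 to 2.42) and Shh, the signal of floor plate and notochord, at 10.3 and 16.3 CPM (1.59, 1.36 to 1.87). The floor plate-like cluster held 1.97% of wild-type and 2.36% of Usb1-null cells, and its part in these values was not tested. In the other 6 neural clusters Nkx2-9 was at 4.81 and 10.5 CPM (2.18, 1.44 to 3.39) and Shh at 20.5 and 27.4 CPM (1.34, 1.08 to 1.66), within the fold. Shh was also raised in a non-neural cluster of 100 cells, which raised 5 gut endoderm markers but had T, a notochord gene, beside Shh among its leading genes, and in an unnamed cluster with gut and hepatic endoderm markers, which held 0.303% and 1.81% of wild-type and 0.415% and 2.60% of Usb1-null cells, and their part in the whole-library value was not tested. Dbx2, a gene of neural tube progenitors midway along the dorsoventral axis, was lower, at 3.18 and 1.86 CPM (0.585, 0.408 to 0.836). Of 11 measured dorsal genes, Lhx9, a gene of dorsal interneurons, was lower, at 2.53 and 0.959 CPM (0.379, 0.237 to 0.596), and 0 were higher. Over all genes 5.9% were lower and 9.2% higher, so counts this small are not read as a shift along the axis. The median ratio was 1.21 for the ventral and 0.876 for the dorsal list, beside the 1.10 of Olig2 and the 1.22 of Olig3.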

How the data were processed

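Per library, the authors deposited 1 matrix of raw UMI counts (genes by barcodes) from 10x Genomics 3′ libraries. The matrix headers name Cell Ranger 6.1.2 and the submitters' processing notes Cell Ranger 2.1.1 and mm10. Whether intronic reads were counted was not stated. Nuclear RNA is the molecule in the labels, whereas the protocol describes whole cells. Every barcode held at least 500 UMIs. The wild-type matrix held 15162 barcodes, more than the study used, and the Usb1-null matrix 13034. Cells with 200 to 6000 genes and under 30% mitochondrial UMIs were kept. Log-normalised counts of 2000 variable genes, without the members, gave 30 principal components, with the library effect removed by Harmony (own NumPy 2.4.6 code) and clustered with Leiden on 15 neighbours (Scanpy 1.11.5, leidenalg 0.10.2). Clusters were named from marker lists, by a rule set after the clusters were seen. As the names were rebuilt here, they may differ from those of the study. Scrublet called 933 wild-type and 569 Usb1-null doublets, which were kept. All 9 members were named, and genes of fixed lists with at least 20 UMIs where past a fold of 1.5 with an interval excluding 1, up to 5 per list. Other list genes were named after their values were seen. Some genes of the lists are not reported here. Members, lists and comparisons were chosen with earlier results of these data known.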

Additional observations from a re-analysis of the deposited data

How the results depend on the processing

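No paired analysis was possible because there was 1 library per genotype, and for the same reason no replicate could be left out. Over all alternatives, 133 of 149 values stayed within the counting interval of the reported ratio or within 1.5 times the reported count, 4 reversed from a ratio whose interval excluded 1, and 12 moved otherwise. This count is not a measure of stability. Scaling by the median ratio of all genes divided each ratio by 0.998, and using all barcodes restored 1 wild-type and 16 Usb1-null barcodes, so these settings could hardly move a ratio. Wide intervals also held large changes: Neurod4 in the other 6 neural clusters went from 0.755 to 0.463 and was counted as staying. Of the 143 ratios, 16 lay on the other side of 1, 12 of them from a reported interval that included 1: among these the neuron cluster sum, reported at 0.984, was 1.11 with no library correction, 1.05 with members among the variable genes and 1.14 with 4000 variable genes. Of 134 ratios with an interval, 8 lost and 5 gained an interval excluding 1. With a minimum of 1000 detected genes, the ratio of the summed members reversed to 1.10, from 0.880, and that of Olig2 moved to 1.502. With each cell thinned to 750 UMIs, the ratio of the shares of cells with a member UMI reversed from 1.52 to 0.812 for any member, from 1.38 to 0.777 for Neurog2 and from 2.18 to 0.962 for Olig3. Among genes past the fold in the whole library, 1542 were higher and 988 lower. A minimum of 200 UMIs left 646 higher and 671 lower of 13319 genes, so the excess of higher genes was lost, and a fold of 2 left 632 higher and 183 lower, fewer by construction. The ratio for Neurod1 in the whole library lay between 0.352 and 0.621 over 7 alternatives. The ratio of neuron cluster shares lay between 0.557 and 0.718 over 6. Depth limits Atoh1, Nhlh1 and Nhlh2 most, with 3, 52 and 33 UMIs.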

Other observations

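Other neural bHLH genes outside the 9 members were mostly scarce. Tal2, a midbrain factor gene, had 85 wild-type and 163 Usb1-null UMIs (3.91 and 4.88 CPM). Atoh8 had 171 and 300 UMIs (7.87 and 8.99 CPM). Neurod2 and Neurod6, factors of later cortical neurons, had 0 UMIs in both libraries, under the floor of 3 counts.

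One cluster of 712 wild-type and 661 Usb1-null cells with few UMIs (median 853) had no cell type name and no marker among its leading genes, but raised 4 neural progenitor markers (Sox1, Sox2, Sox3 and Pax6), 3 hindbrain and 3 spinal cord genes. The members had 21 and 31 UMIs in it, or 37.8 CPM in each library, nearer to the 46.7 and 41.3 CPM of the other 6 neural clusters than to the 8.29 and 8.66 CPM over all non-neural clusters, among which it is counted. Neurog2 gave 21 of these UMIs, Olig2 12 and Olig3 11.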
